A study of Danio rerio with 3 samples.

Results

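miR-124, miR-128 and miR-137 are 3 microRNA families known from neurons, and they were followed here in whole zebrafish larvae. They were taken from the deposited table of all libraries as every row for a named microRNA with any of these family numbers, whatever its copy, arm, end form or species prefix, and each distinct sequence was counted once. This gave 21 of 1202 distinct sequences, of which 11 belonged to miR-124, 5 to miR-128 and 5 to miR-137. A zebrafish name was carried by 15 of them, and the others had names from other vertebrates. The larvae were wild type, of the AB strain, and were collected whole at 7 days after fertilisation. They were the offspring (F1) of parents (F0) exposed for 90 days, starting as embryos of 6 hours, to β-diketone antibiotics at 0 mg/L (control), 6.25 mg/L (the lower dose) or 12.5 mg/L (the higher dose). The mixture held equal weights of the fluoroquinolones ofloxacin, ciprofloxacin and enrofloxacin and of the tetracyclines doxycycline, chlortetracycline and oxytetracycline. Each dose had 1 library, and the labels give neither the number of larvae in it nor whether the larvae themselves met the antibiotics.

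A microRNA is cut from a hairpin whose 5p and 3p arms can each give a mature strand. As a rule 1 strand is kept in an Argonaute protein and the other is degraded. The kept strand finds its mRNA targets mainly through the seed, bases 2 to 8 from its 5′ end, while its 3′ end can be trimmed or can gain bases. In vertebrates miR-124 is the classic microRNA of differentiated neurons, where it holds down transcripts of other cell types, among them the splicing regulator Ptbp1 in mammals. miR-128 is enriched in brain and in mice restrains neuronal excitability, and miR-137 acts in neural differentiation and at synapses in mammals. In all these families the 3p arm is the functional strand.

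The sequences below are those on which the results turn, as the authors deposited them, in DNA letters with T for U. Capitals mark the seed of each read.
miR-124-3p, annotated length of 22 nt: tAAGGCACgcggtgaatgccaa
miR-124-3p, 1 nt shorter: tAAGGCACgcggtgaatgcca
miR-124-3p, 1 nt longer: tAAGGCACgcggtgaatgccaat
miR-124-3p, A22T form: tAAGGCACgcggtgaatgccat
miR-124-3p, 3 nt longer, human name: tAAGGCACgcggtgaatgccaaaaa
miR-124-5p: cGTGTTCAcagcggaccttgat
miR-124-5p, C1T and C12T: tGTGTTCAcagtggaccttgat
miR-124-5p, A10G: cGTGTTCAcggcggaccttgat
miR-128-3p, salmon name: tCACAGTGaaccggtctcttt
miR-128-3p, 3 nt more at the 5′ end: aTCTCACAgtgaaccggtctcttt
miR-137-3p, 1 nt shorter: tTATTGCTtaagaatacgcgt
miR-137-3p, 1 nt longer: tTATTGCTtaagaatacgcgtac
miR-137-5p, annotated length: aCGGGTATtcttgggtggataata
In a substitution such as A22T, the annotated base comes first, then its position counted from 1 at the 5′ end, then the base in the read. The 5 forms of miR-124-3p shared the seed AAGGCAC and differed only at their 3′ ends. The 3 extra bases of miR-128-3p changed its seed from CACAGTG to TCTCACA. Outside the 3 families, 0 of the 1202 sequences had a seed printed here.

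Counts summed to 4534557 in the control library, 5099264 at the lower and 6041242 at the higher dose. Values given as a series of 3 follow this order. Values below are the authors' normalised reads unless called shares, and ratios between single libraries carry 95% intervals of counting error only. These intervals treat reads as independent, which PCR copies of a molecule are not, so they can be too narrow. There was no replicate of any dose, so "higher" and "lower" describe these libraries and no test was possible. Markers of a whole larva were present. In control the more abundant arms summed to 173418 for miR-205-5p of skin, 115748 for miR-133-3p of muscle, 18669 for miR-122 of liver, 8348 for miR-126-3p of vessels and 2982 for miR-144-5p of red blood cells. The 2 analysed forms of miR-451, also of red blood cells, summed to close to 0 in all libraries (at most 2.84). The other muscle arms were scarcer in control, miR-1-3p at 486 and miR-206-3p at 151, and their unsubstituted strands were not analysed here. In whole larvae, a different number of neurons and a different amount of a microRNA per neuron cannot be told apart.

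The 3p arms of all 3 families were higher in both libraries of exposed parents than in the control library. Their 5p arms were level or lower with the deposited scaling, and above control at the higher dose with equal library totals. Being above control was common with the deposited scaling. Of the 471 single sequences compared further below, 280 (59.4%) were above it at the lower dose and 256 (54.4%) at the higher dose. Both doses were set against the same control library, so the 2 comparisons are not independent. miR-124-3p, summed over its 5 forms, stood at 10014, 13770 and 15771. The values followed the order of the doses. Against control the ratio was 1.38 (interval 1.34 to 1.41) at the lower dose and 1.57 (1.54 to 1.61) at the higher dose, and between the doses it was 1.15 (1.12 to 1.17). A share of all counts amounts to scaling to equal library totals. As such a share, the arm took 0.187% (0.183 to 0.191), 0.264% (0.260 to 0.269) and 0.368% (0.363 to 0.373). On that scale its log2 ratio to control at the higher dose was 0.98, against 0.66 with the deposited scaling.

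miR-128-3p was the most abundant of the arms, at 43110, 66825 and 69082 in the order of doses. Nearly all of it was 1 sequence of 21 nt with a salmon name, at 43037, 66764 and 69014, which ranked 25th, 21st and 19th among all sequences by normalised reads. The ratio to control was 1.55 (1.53 to 1.57) at the lower dose and 1.60 (1.58 to 1.62) at the higher dose. With the deposited scaling the libraries of exposed parents lay close together, with a ratio of 1.03 (1.02 to 1.04) between the doses. With equal library totals the arm had a log2 ratio of 0.33 between the doses. Its share of all counts was 0.806% (0.798 to 0.814), 1.28% (1.27 to 1.29) and 1.61% (1.60 to 1.62). By the name of a scarce zebrafish form, the annotated zebrafish strand of miR-128-3p is 1 nt longer than the salmon-named sequence. That strand was not analysed here, so this sum, its ratios to control, its shares and its arm ratio leave it out.

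The analysed forms of miR-137-3p summed to 4183, 5119 and 5349. The strand of annotated length was not analysed here, so this sum, its shares, its arm ratio and its place among the arms leave that strand out. Its ratio to control was 1.22 (1.17 to 1.28) at the lower dose and 1.28 (1.23 to 1.33) at the higher dose, with 1.04 (1.01 to 1.08) between the doses. Its share of all counts was 0.0782% (0.0756 to 0.0808), 0.0983% (0.0956 to 0.101) and 0.125% (0.122 to 0.128). The order of these sums, miR-128-3p above miR-124-3p above miR-137-3p, was the same in each library, but read counts of different sequences also depend on how well each is captured. Scaling to equal library totals raised every log2 ratio of the higher dose to control by 0.32, and scaling by the median of ratios lowered it by 0.12. All 3 of the 3p arms stayed above control at both doses under either scaling.

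The 5p arms had smaller ratios to control than their 3p arms. miR-124-5p summed to 2776, 2815 and 2553, a ratio to control of 1.01 (0.959 to 1.07) at the lower dose and of 0.920 (0.873 to 0.970) at the higher dose. Its share of all counts was 0.0519% (0.0498 to 0.0540) in control and 0.0596% (0.0577 to 0.0616) at the higher dose, so with equal library totals the log2 ratio was 0.20 and not -0.12. miR-128-5p, with 2 scarce forms under salmon and opossum names, had 89.7, 61.3 and 73.7. miR-137-5p had 47.2, 29.1 and 45.7. The control library was the highest for both of these scarce arms, and that of the lower dose the lowest. At the lower dose the interval against control was 0.479 to 0.972 for miR-128-5p, and 0.360 to 1.01 for miR-137-5p, which includes 1. At the higher dose their intervals against control, 0.606 to 1.12 for miR-128-5p and 0.638 to 1.47 for miR-137-5p, include 1. Equal library totals put them at log2 ratios of 0.04 and 0.27 there.

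**Figure D1:**
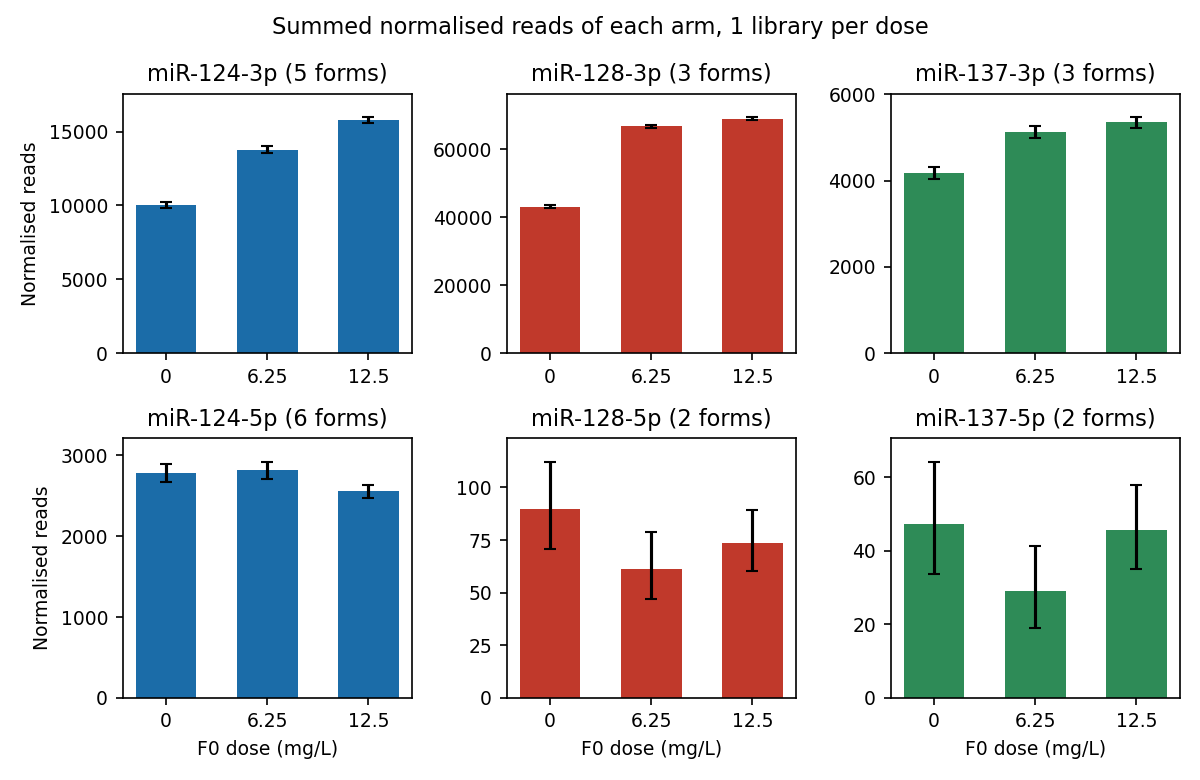
Summed normalised reads (vertical axis, from 0, a scale for each panel) of the 3p and 5p arms of miR-124, miR-128 and miR-137 at each F0 dose in mg/L. Bars are single libraries and whiskers 95% counting intervals. The 3p arms stand above control at both doses, miR-128-3p at 43110, 66825 and 69082, while the 5p arms are level or lower on this scale (with equal library totals they are above control at 12.5 mg/L).

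The balance of the arms within a library does not depend on scaling. For each 5p read of miR-124 there were 3.61, 4.89 and 6.18 reads of 3p. This ratio was 1.36 times that of control (exact interval 1.27 to 1.44) at the lower dose and 1.71 times (1.62 to 1.81) at the higher dose. Between the doses it differed 1.26 times (1.20 to 1.33), so the libraries differed by more than counting error. For miR-128 there were 481, 1090 and 937 reads of 3p per 5p read. That was 2.27 times control (1.59 to 3.24) at the lower dose and 1.95 times (1.43 to 2.65) at the higher dose, while the interval between the doses, 0.615 to 1.19, includes 1. For miR-137 there were 88.6, 176 and 117, or 1.98 times control (1.21 to 3.40) at the lower dose. At the higher dose the value was 1.32 times control, and its interval of 0.871 to 2.01 includes 1.

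The same ratio, of the more abundant to the other arm, could be formed for 64 families with at least 10 normalised reads of each arm. At the lower dose it was higher than in control in 33 of the 64 (51.6%), with a median log2 change of 0.02. The 3 neuronal families had log2 changes of 1.18 (miR-128, the highest of the 64), 0.99 (miR-137, the 4th) and 0.44 (miR-124, the 12th). At the higher dose it was higher in 29 of 64 (45.3%), with a median of -0.15. There the changes were 0.96 for miR-128, 0.78 for miR-124 and 0.40 for miR-137, at places 4, 7 and 18. Both sets of changes share the control library. The places of miR-128 and miR-137 rest on few 5p counts, 76, 60 and 104 for miR-128-5p and 40, 28.5 and 64.5 for miR-137-5p. The more abundant arm was chosen by its mean over the libraries. The 64 families include miR-206, with ratios of 0.82, 0.89 and 6.25 and a log2 change of 2.92 at the higher dose. Its unsubstituted 3p strand was not analysed here.

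**Figure D2:**
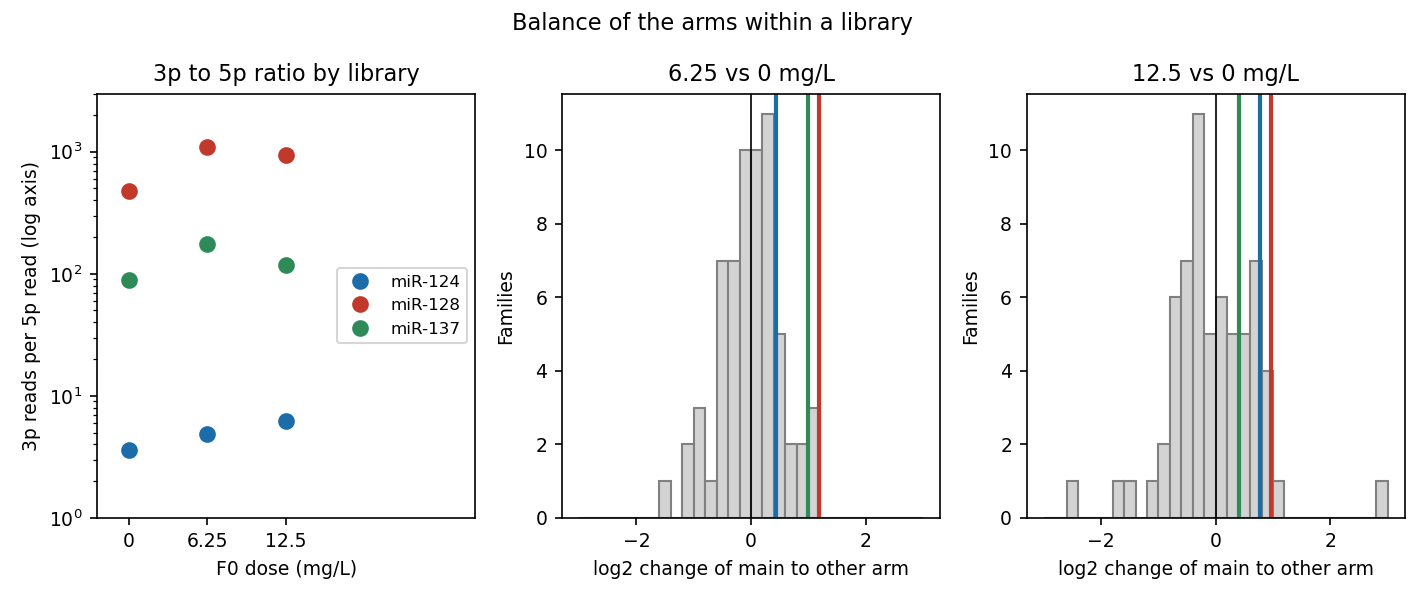
Left, reads of the 3p arm per read of the 5p arm (log axis) in each library by F0 dose in mg/L, for instance 3.61, 4.89 and 6.18 for miR-124. Centre and right, histograms of the log2 change of the ratio of the main to the other arm in 64 families, with coloured lines for miR-124, miR-128 and miR-137, which all lie to the right of 0.

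miR-124 arises from several hairpins that give the same 3p strand but differ in 5p, so the 5p arm shows part of what each copy contributes. RefSeq's gene table of the assembly GRCz12tu lists 6 hairpin genes of miR-124, 3 of miR-128 and 2 of miR-137. There mir128-2 lies within arpp21 and mir128-1 within r3hdm1, genes that host this microRNA in mammals as well. Among the sequences here, the form of miR-124-5p with C1T and C12T equals the annotated 5p strand of the copy mir-124-4, as read from the deposited name of a scarce mir-124-4 sequence. The A10G form likewise equals the 5p strand of mir-124-6. By the authors' own names, both sequences thus match other copies of the gene.

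The main miR-124-5p had 1370, 1329 and 1134 normalised reads, with a ratio to control of 0.828 (0.768 to 0.894) at the higher dose. The mir-124-4 strand had 1181, 1271 and 1190, and its ratio at the higher dose was 1.01 (0.932 to 1.09). The mir-124-6 strand had 225, 215 and 225, with 0.999 (0.834 to 1.20). Of the 5p reads, the main form took 49.3% (47.3 to 51.4), 47.2% (45.3 to 49.1) and 44.4% (42.8 to 46.1), and the mir-124-4 strand 42.5% (40.5 to 44.6), 45.2% (43.3 to 47.0) and 46.6% (45.0 to 48.3). The main form was the larger share in the control library and the mir-124-4 strand at the higher dose, where the intervals of these strands overlap. For each strand, the intervals in control and at the higher dose do not overlap.

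Within miR-124-3p and miR-137-3p, forms with added 3′ bases had larger ratios to control at the higher dose than the abundant forms, while the longer form of miR-128-3p had a smaller one. The miR-124-3p form 1 nt shorter had 6428, 8893 and 9822 normalised reads, and the form of annotated length had 3128, 4231 and 4683. These abundant forms stood at 1.53 (1.48 to 1.58) and 1.50 (1.43 to 1.57) times control at the higher dose. The form 1 nt longer, the annotated strand with a T added, had 276, 388 and 647, or 2.34 times control (2.03 to 2.72). The A22T form is the shorter strand with a T added, and it had 175, 251 and 585, or 3.34 times control (2.81 to 4.02). At the lower dose these last forms were 1.40 (1.19 to 1.66) and 1.43 (1.17 to 1.78) times control, close to the 1.38 and 1.35 of the abundant forms.

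The T-ended forms together took 4.51% of miR-124-3p reads in control (4.07 to 4.96), 4.64% at the lower dose (4.29 to 5.01) and 7.81% at the higher (7.46 to 8.17). The library of the higher dose stood apart, and the other libraries overlapped. The form with a human name, with 3 more A than the annotated strand, had 7.08, 7.15 and 34.0. It passed the minimum mean of 10 through the library of the higher dose alone.

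miR-137-3p showed the same split at the higher dose. Its form 1 nt shorter had 3952, 4868 and 4860, at 1.23 times control at both doses (1.18 to 1.29 and 1.18 to 1.28). Its form 1 nt longer had 231, 251 and 488, or 1.09 (0.897 to 1.32) and 2.12 (1.80 to 2.49) times control. The longer form took 5.51% of the arm (4.80 to 6.33), 4.91% (4.33 to 5.54) and 9.13% (8.48 to 9.79). These shares leave out the strand of annotated length. In miR-128-3p, a scarce form of 23 nt with a pufferfish name is the main strand with 2 nt added. It had 36.6, 34.7 and 34.0 normalised reads, or 0.931 times control (0.580 to 1.51) at the higher dose, against 1.60 for the main strand. Whether added bases were encoded in the hairpins was not tested.

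Of 11 zebrafish-named arms with at least 1000 normalised reads and both longer and other unsubstituted forms, 9 (81.8%) had a higher share at the higher dose than in control. The log2 change of the odds was 0.63 for miR-124-3p and 0.78 for miR-137-3p, against 0.85 for miR-93, 0.82 for miR-499-5p and 0.49 for miR-181a-5p. The median of the 9 other arms was 0.06 and their lowest value -0.28, and 4 of the 7 above 0 were below 0.1. At the lower dose it was 0.03 for miR-124-3p and -0.18 for miR-137-3p. Longer forms were nearly all of miR-93, 99.8% in control and 99.9% at the higher dose, so its change concerns a small remainder. Of 12 sequences whose last base was substituted to T, A22T included, 4 were at least 2-fold higher at the higher dose than in control. Of all 471 sequences compared by this rule, 51 were. The share past 2-fold was thus 33.3% of the 12 against 10.8% of all 471. The median log2 ratio of the 12 was -0.02 there, against 0.08 for all 471, so their median was not raised.

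**Figure D3:**
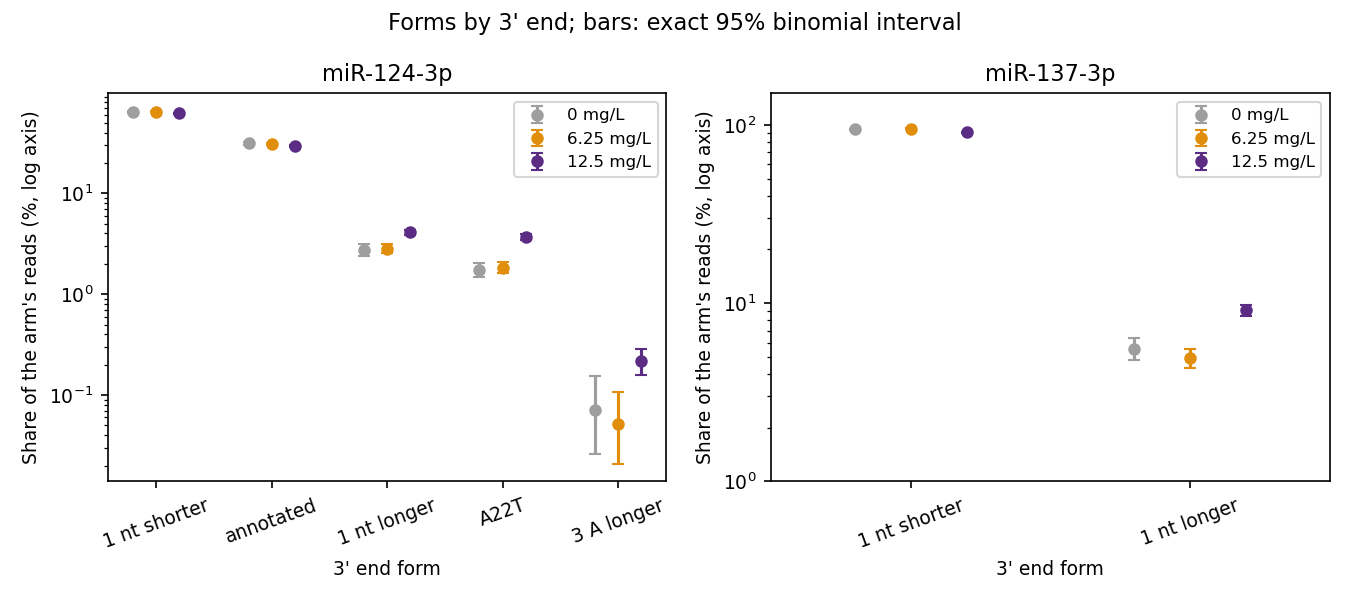
Share of the arm's reads (percent, log axis) in each 3′ end form of miR-124-3p (left) and miR-137-3p (right), by F0 dose, with exact 95% binomial intervals. The longer and A22T forms lie higher at 12.5 mg/L, the longer miR-137-3p form at 9.13% against 5.51% in control, and the shorter forms dominate in every library.

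By the rule of at least 2-fold, 16 of the 21 members could be compared, those whose mean over the libraries reached 10 normalised reads. At the lower dose 0 of the 16 passed 2-fold upward and 0 downward, against 2.55% of all 471 sequences compared in the higher and 2.55% in the lower direction. At the higher dose 4 members (25%) were higher, against 10.8% of all sequences, and 0 were lower, against 4.25%. The 4 were the T-ended miR-124-3p forms, the form with 3 more A and the longer miR-137-3p, all of them end forms. The form with 3 more A passed the minimum only through the library in which it was high. Among sequences that reach the minimum whichever library is left out of the mean, 3 of 15 members were higher, against 7.05% of 440 sequences. Among all 120 compared sequences with a substitution in their names 35 were higher at the higher dose, and among 89 unsubstituted sequences longer at the 3′ end 10 were. Between the doses 2 members were higher at the higher dose, the A22T form and the form with 3 more A, against 11% of all sequences, and 0 were lower, against 3.4%. With the minimum met without any single library, 1 of 15 was higher, against 7.27%. The median log2 ratio of the 16 was 0.06 at the lower dose and 0.24 at the higher dose, where all 471 sequences had 0.11 and 0.08. For the 10 members of 3p arms these medians were 0.37 and 0.65, and for the 6 of 5p arms -0.23 and -0.10.

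**Figure D4:**
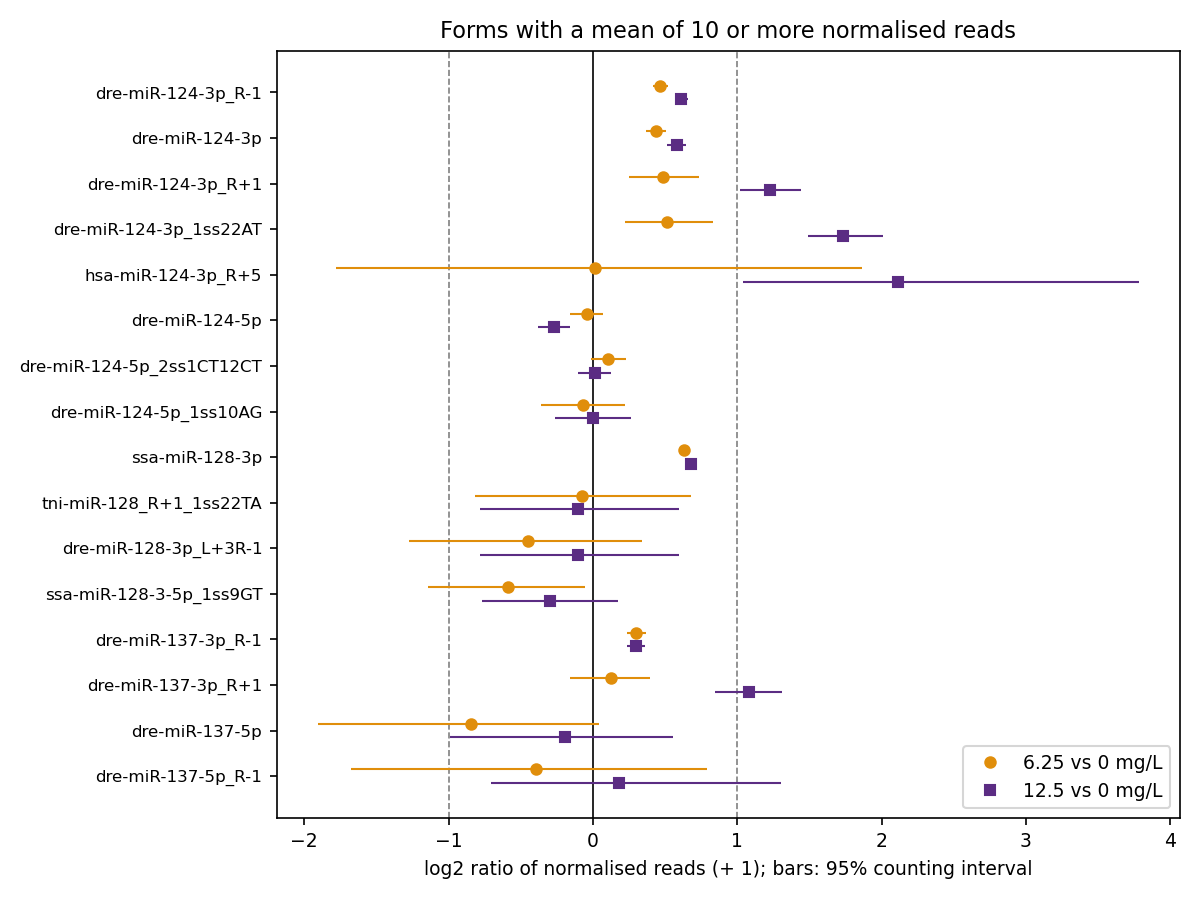
log2 ratio of normalised reads to control (horizontal axis) for the 16 forms compared, at 6.25 mg/L (circles) and 12.5 mg/L (squares) of F0 exposure, with 95% counting intervals and dashed lines at 2-fold. In the names R and L give bases gained or lost at the 3′ and 5′ ends and ss marks substitutions. The 4 squares past the right dashed line are end forms of miR-124-3p and miR-137-3p.

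The remaining members were scarce. The miR-128-3p form with 3 nt more at its 5′ end had 36.6, 26.6 and 34.0 normalised reads. It was not higher in the exposed libraries with the deposited scaling, unlike the main strand. The salmon-named miR-128-5p had 80.2, 53.1 and 65.2, and the miR-137-5p forms had 30.1, 16.3 and 26.2 for the annotated length and 17.1, 12.8 and 19.5 for 1 nt less. The other 5 members did not pass the minimum of 10, with at most 9.44 normalised reads in any library. They were 1 miR-128-5p form, 3 miR-124-5p forms and 1 miR-137-3p form, and 3 of them hold a base that was not called. In the authors' deposited table, 10 of the 21 members (47.6%) had a chi-square p-value below 0.05 across the libraries, against 36.5% of all 1202 sequences. Those p-values compare libraries, not exposures.

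For some other microRNA families of the nervous system the direction at the higher dose varied with the scaling. Under every scaling tried, miR-7-5p, miR-9-5p and miR-219-5p were below control there, and miR-153-3p and miR-212-5p above it. Among 9 such families, taken by their more abundant arm, 7 had a higher sum than control at the lower dose and 3 at the higher dose, with median log2 ratios of 0.23 and -0.05. With equal library totals 8 and 6 were higher, and the median log2 ratio was 0.27 at either dose. At the lower dose 0 of the 9 reached 2-fold, and at the higher dose 1 was at least 2-fold lower and 0 higher. The lower family, no longer past 2-fold with equal totals, was miR-7-5p, of neurons and endocrine cells, at 56685, 54925 and 28242. miR-9-5p, of neural progenitors, had 239815, 238395 and 173716, a ratio to control of 0.724 (0.720 to 0.729) at the higher dose. miR-138-5p, known from dendrites, had 11661, 17095 and 11263, and miR-219-5p of myelin-forming glia had 33935, 38599 and 24946. These were below control at the higher dose with the deposited scaling, and miR-138-5p was above it with equal totals. Nearest to the neuronal 3p arms were miR-153-3p at 41386, 45834 and 47720 and miR-212-5p at 2575, 3022 and 3609.

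Skin microRNAs were lower than control in both libraries of exposed parents, under every scaling tried. miR-205-5p had 173418, 134216 and 125254, and miR-203-3p had 194324, 169909 and 146495. The liver's miR-122 had 18669, 24414 and 12926. With the deposited scaling miR-133-3p of muscle, summed over 7 forms, was nearly level at 115748, 119717 and 121861. Its log2 ratio to control at the higher dose was 0.07 there, to which equal library totals add 0.32. The other muscle arms were higher at the higher dose, miR-1-3p at 486, 545 and 5247 and miR-206-3p at 151, 139 and 1587, or 10.8 (9.78 to 11.95) and 10.5 (8.79 to 12.7) times control. Each of these sums was at least 97.5% a single sequence with the substitution G3T in its name, and the unsubstituted 3p strands of miR-1 and miR-206 were not analysed here. The part of tissue proportions in the values of the neuronal families was not tested.

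The arms most like the 3p arms were sought among 121 zebrafish-named arms whose mean reached 1000 normalised reads. Likeness was the Euclidean distance between the pairs of log2 ratios to control over the 3 libraries. Arms of the 3 families were not listed as neighbours of one another. With log2 ratios of 0.46 and 0.66 for miR-124-3p and of 0.63 and 0.68 for miR-128-3p, these arms also lay close together. Nearest to miR-124-3p was miR-499-5p of muscle (distance 0.06, at 3440, 4601 and 5242 normalised reads). Next were miR-133b-3p of muscle (0.18, at 4192, 5156 and 6291) and miR-212 (0.20, at 1597, 2372 and 2244). This miR-212 is named without an arm, and its values are not those of miR-212-5p above. miR-133b-3p is a part of the miR-133-3p sum, which was nearly level with the deposited scaling. Outside the 3 families, the arms nearest to miR-124-3p were also those nearest to miR-128-3p. Their distances from it were 0.20 for miR-212, 0.23 for miR-499-5p and 0.35 for miR-133b-3p. Nearest to miR-137-3p were miR-29b-3p (0.03; 4069, 4893 and 5203), miR-9-3p (0.06; 49766, 62943 and 62325) and miR-146a-5p (0.08). miR-9-3p comes from the same hairpins as miR-9-5p, which was lower at the higher dose.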

How the data were processed

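Small RNA of whole larvae was sequenced from 3 libraries, 1 per group. Per the labels' protocols, total RNA was extracted with Trizol and libraries were prepared with Illumina's TruSeq kit for small RNA. The genome build was Zv9, per the submitters' processing notes. The sources used here give no aligner, miRNA database or counting rules. The raw values that the authors deposited, per the file headers, are estimated counts (78.2% whole, tolerance 1e-09), and a normalised signal. In each library the deposited signal was the count times 1 factor, 1.18, 1.02 and 0.709 in the order of doses. The authors also deposited a ratio (fold), its log2 value and p-values for pairs of single libraries. The 4 tables held the same values for shared sequences.

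Rows of the same sequence (1430 rows, 1202 sequences) were taken once, under the most abundant row. A name without an arm was given the arm of a labelled form of its family that shared read bases 2 to 11. Names mark end forms and substitutions and could not be re-derived. log2 ratios used the normalised value plus a pseudocount of 1, which understates differences of scarce sequences. Intervals of ratios and shares are exact (Clopper-Pearson, 95%) on rounded counts, and those of arm ratios come from the conditional odds ratio. Without replicates no test was possible, and a rule of 2-fold was applied to sequences with a mean of 10 or more. Every member with a mean of 100 or more was named with its values, and scarcer members were also named because they are few. The ratio and interval steps were tested on simulated data. Members and lists were chosen with earlier results of these data known. Python 3.11.15, pandas 2.3.3, NumPy 2.4.6 and SciPy 1.17.1 were used.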

Additional observations from a re-analysis of the deposited data

How the results depend on the processing

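Ratios rest on single libraries, so the spread between larvae or libraries is unknown, and the 5p arms of miR-128 and miR-137 rest on few reads. No paired analysis was possible because each group had 1 library. Leaving out a library would leave no value for its group. Arm ratios under other choices were added after the data were seen. Scaling to equal library totals gave log2 ratios of 0.98 and 0.48 for miR-124-3p at 12.5 mg/L against 0 and 6.25 mg/L. For miR-128-3p it gave 0.67 at 6.25 mg/L, 1.00 at 12.5 mg/L and 0.33 between the doses, and for miR-137-3p 0.68 at 12.5 mg/L and 0.35 between the doses. The median of ratios gave 0.38, 0.54 and 0.16 for miR-124-3p (6.25 against 0, 12.5 against 0, and between the doses), 0.55, 0.56 and 0.013 for miR-128-3p, and 0.21 and 0.24 for miR-137-3p against control. With zebrafish names only, miR-128-3p had -0.45 at 6.25 mg/L and -0.10 at 12.5 mg/L, with 0.35 between the doses, where the main strand, with a salmon name, drops out by construction and the scarce form with 3 nt more at the 5′ end is left. The other 27 of 45 values of the 3p sums stayed within the counting interval of the main value. Most of these were choices of forms that dropped no form or only scarce forms from a sum, so they could hardly differ. Most values under the other scalings lay outside that interval. Without substituted forms, which drops the mir-124-4 and mir-124-6 strands, the log2 change of the miR-124 arm ratio at 12.5 mg/L was 0.90. The arm ratio of miR-128 could not be formed without substituted forms or with zebrafish names only, since no 5p form is left. The number of members at least 2-fold higher between the doses was 2 of 16, but 1 of 10 with a minimum mean of 100. It was 4 of 16 with equal totals, which add 0.28 to every such log2 ratio, of members and other sequences alike. It was 1 of 11 without substituted forms. In a choice added after the data were seen, it was 1 of the 15 forms that reach the minimum whichever library is left out of the mean. Shares of all sequences are given above for the main and this last choice only. At 12.5 mg/L against control the number of members was 4 of 16, and 3 to 5 under the alternatives. At 6.25 mg/L it was 0 under every alternative tried.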
